A study of Drosophila melanogaster with 4 samples.

Results

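The genes described here encode proteins that build, line or remodel chitin-containing layers of the larva: mucins, peritrophins and other chitin-binding proteins, chitinases, and the chitinase-like imaginal disc growth factors. The rule that picked them uses gene names and no measured value, but it was set with earlier results of these data known. A gene was included when its only annotated probe gene carried a current symbol beginning with Peritrophin, Muc, Mur, Cht, Idgf or obst-, or was *Gasp*, *serp*, *verm*, *kkv* or *CG7298*. The array carried 48 such genes among 12058 named genes, and 23 of the 48 (47.9%) had a value in both RNA extractions and could be tested, compared with 1659 of all named genes (13.8%). A further 9 had a value in 1 extraction only, and 16 had none.

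The insect midgut is lined by the peritrophic matrix, a sleeve of chitin fibrils held together by peritrophins, whose cysteine-rich domains bind chitin, and by mucins, which carry many sugar chains. Related chitin-binding proteins, the obstructor family, sit in the cuticle of the epidermis and of the tracheal tubes. Chitin is polymerised by chitin synthases, trimmed by deacetylases and degraded by chitinases, whereas the Idgf proteins keep the fold of a chitinase but lack its catalytic activity and are secreted as growth factors.

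Whole larvae of the third instar mutant for *ash2*, staged with bromophenol blue in the food and wandering early in that instar, were compared with wild-type larvae of the isogenic line *w1118;+;+* of the same stage. The product of *ash2* is a trithorax group protein that maintains active transcription. The mutant stock, given as *w1118;+;ash2I1*, carries chromosomes X, Y and 2 of the isogenic line, while chromosome 3, with the mutation, was not exchanged and was kept over the balancer *TM6c*, so that larvae without the *Tb* marker of the balancer were picked. Mutant RNA came from 2 extractions (n = 2), each amplified and put on 2 arrays together with RNA from 1 wild-type pool, with the mutant in Cy5 and the pool in Cy3 on all 4 arrays, so a dye effect and the genotype cannot be told apart. The sample titles number the arrays but do not name the extraction. Arrays 1 and 2 were taken as extraction 1 and arrays 3 and 4 as extraction 2, and every n = 2 rests on this. Pearson correlations were 0.96 for arrays 1 and 2 and 0.85 for arrays 3 and 4, against 0.65 to 0.81 for the other pairs. Each value is a log2 ratio whose numerator is likely the mutant, a direction taken from these dyes and the usual Cy5 over Cy3 convention of the software named by the authors, so higher and lower below mean in the mutant. In RNA of whole larvae, fewer cells of a type and less RNA per cell cannot be told apart.

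The arrays differed in how many spots passed the quality thresholds of the authors, from 378 named genes on array 4 to 2481 on array 1. Values on the second array of an extraction were mostly smaller in size than on the first, in 75.9% of 1288 genes on arrays 1 and 2 and in 66.4% of 339 genes on arrays 3 and 4. The members shared this, with 16 of 18 smaller on array 2 than on array 1 and 5 of 7 smaller on array 4 than on array 3. For 1301 of the tested genes extraction 2 rests on array 3 without array 4. No check of *ash2* was possible, since its probe was empty on all 4 arrays.

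Of the 23 tested members, 4 were over-expressed in the mutant larvae at an adjusted p under 0.05 in limma and at least a 2-fold change, none was under-expressed and 19 did not pass. They were the mucin-related gene *Mur18B*, the mucin gene *Muc11A*, the chitin-binding protein gene *CG7298* and the growth factor gene *Idgf3*, with fold changes from 2.08 to 3.2. Over all 1659 tested genes, 63 (3.8%) were called higher, 47 (2.83%) lower, and 110 (6.63%) in either direction. *CG7298* is named singly by the rule, which was set with earlier results of these data known. The number called among the members is therefore a description and no test against the share over all genes. The median log2 ratio of the tested members was 0.47, against 0.01 over all tested genes, and 15 of the 23 lay above 0, as did 50.9% of all tested genes. On every array with a value, 14 of the 23 lay above 0 (36.4% of all tested genes) and 7 below 0 (34.7% of all). Among the tested genes, 5 of 6 mucins, all 5 Idgf genes and 3 of 7 obstructors lay above 0, and the 2 chitinases lay below. No member was called lower in any alternative processing, although 3 had an unadjusted p under 0.05 below 0 (16.5% of all tested genes did so) and 11 had one above 0 (17.8% of all).

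**Figure D1:**
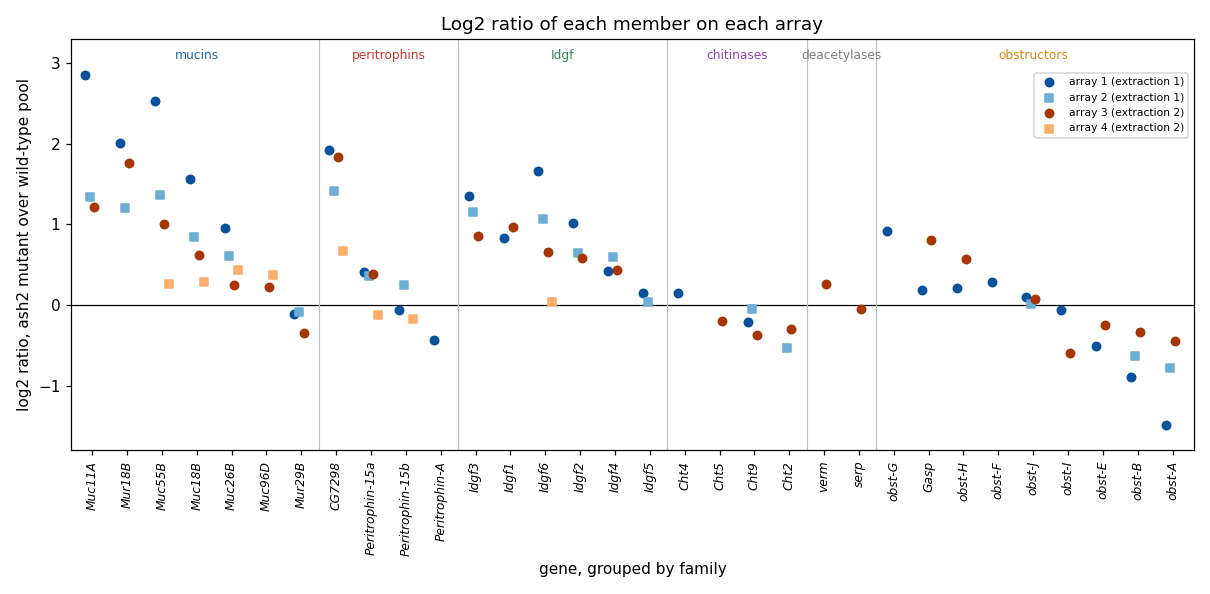
Log2 ratio of mutant over wild-type pool (y axis) for the 32 members with any value (x axis, by family), with circles for arrays 1 and 3 and squares for arrays 2 and 4, blue for extraction 1 and brown or orange for extraction 2. Of the 7 mucins with a value 6 lie above 0 on every array, and array 1 gave the highest value of *Muc11A*, 2.86.

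Mucins are large secreted glycoproteins, and of the 16 on the array 6 were tested. The highest log2 ratio was that of *Mur18B*, whose name marks it as mucin-related. It measured 2.00 and 1.20 on the arrays of extraction 1 and 1.76 on array 3, the only array of extraction 2 with a value. All 3 values lay above 1, and the extraction means of 1.60 and 1.76 were close. The fitted log2 ratio was 1.68 ± 0.13 (SE, n = 2), a 3.2-fold rise (adjusted p = 0.0215), and *Mur18B* stood 23rd from the top of the 1659 tested genes.

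*Muc11A* measured 2.86 and 1.34 on arrays 1 and 2 and 1.21 on array 3. Every value was above 1, but arrays 1 and 2, which were taken to carry the same amplified RNA, were farther apart than array 2 was from array 3. Its log2 ratio was 1.65 ± 0.25 (SE, n = 2), or 3.15-fold (adjusted p = 0.0409). The call was lost without array 2, when the arrays were brought to 1 median absolute deviation, and when a gene was represented by 1 probe (adjusted p = 0.0781, 0.0528 and 0.05001), while the log2 ratio lay between 1.27 and 2.03 in the 13 alternatives that gave one. *Muc11A* has only 1 probe, so the probe setting left its ratio at 1.65 and changed only the other genes in the fit.

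*Muc55B* had the next highest ratio among the mucins but missed the threshold. Its values were 2.54 and 1.36 on arrays 1 and 2, and 1.01 and 0.26 on arrays 3 and 4. They lay above 0 on every array and spread over more than 2 log2 units. With extraction means of 1.95 and 0.64, the log2 ratio was 1.29 ± 0.35 (SE, n = 2, 95% interval 0.35 to 2.24, adjusted p = 0.0885). It passed without array 4 (log2 ratio 1.48, adjusted p = 0.0482), and in 4 other alternatives that are given with the processing.

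*Muc18B* measured 1.56, 0.85, 0.62 and 0.28 on arrays 1 to 4, and *Muc26B* measured 0.95, 0.61, 0.25 and 0.43. Both were above 0 on all 4 arrays and higher in extraction 1 than in extraction 2. Their log2 ratios of 0.83 ± 0.22 and 0.56 ± 0.17 missed the threshold (adjusted p = 0.0895 and 0.107 in limma).

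*Mur29B* was the exception among the tested mucins, with -0.11, -0.09 and -0.35 on arrays 1 to 3. Its log2 ratio of -0.23 ± 0.14 (SE, n = 2) did not pass (adjusted p = 0.321). The 95% interval of *Mur29B*, from -0.61 to 0.16, does not overlap those of *Mur18B* (1.32 to 2.04) and *Muc11A* (0.97 to 2.34), though the differences themselves were not tested. *Muc96D* had values in extraction 2 only, 0.23 and 0.37. The median over the 6 tested mucins was 1.06, with 1.40 in extraction 1 and 0.54 in extraction 2. Above 0 on every array with a value were 5 of the 6, against 36.4% of all tested genes. *Muc12Ea*, *Muc14A*, *Muc4B*, *Muc68D*, *Muc91C*, *Mur11Da*, *Mur2B*, *Mur82C* and *Mur89F* had no value.

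**Figure D2:**
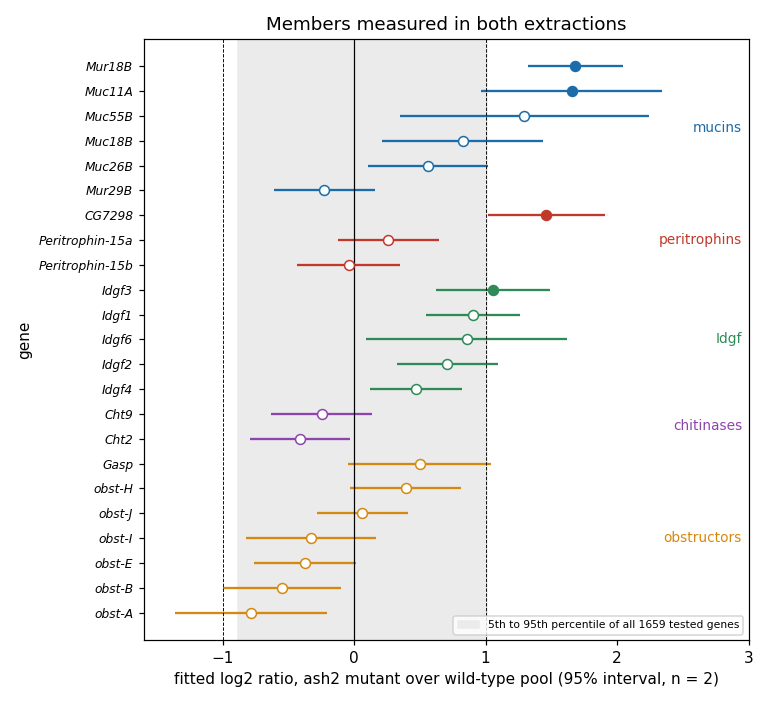
Fitted log2 ratio of mutant over wild-type pool (x axis) with its 95% interval in limma for the 23 members measured in both extractions (y axis, by family). Filled circles mark the 4 called members, all at 1.06 or above, dashed lines mark a 2-fold change, and the grey band, from -0.88 to 1.01, holds the 5th to 95th percentile of all tested genes.

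The peritrophins, which hold the chitin fibrils of the gut lining together, were split. *CG7298* was placed with them here as a gene of a chitin-binding cluster. The rule names this gene singly, while chitin-binding neighbours such as *CG7290* are outside the members. *CG7298* measured 1.93, 1.41, 1.84 and 0.67 on arrays 1 to 4. All 4 values were above 0 and array 4 gave the smallest. The log2 ratio was 1.46 ± 0.16 (SE, n = 2), a 2.75-fold rise (adjusted p = 0.0263). Its call was lost without array 3 (adjusted p = 0.162), a setting in which limma called none of 358 genes, 67 of them with an unadjusted p under 0.05, and 1 of these among the 7 members. The other 3 called members had no value in extraction 2 without array 3 and could not be tested there.

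*Peritrophin-15a* measured 0.41, 0.36, 0.39 and -0.12, close to each other on arrays 1 to 3 and below 0 on array 4. *Peritrophin-15b*, its neighbour on the chromosome, measured -0.06 and 0.25 on arrays 1 and 2 and -0.18 on array 4. Neither passed, with log2 ratios of 0.26 ± 0.14 (adjusted p = 0.271) and -0.04 ± 0.14 (adjusted p = 0.857) in limma. Their 95% intervals, -0.13 to 0.64 and -0.43 to 0.35, leave out a change of 2-fold in either direction. These intervals hold no spread of the wild-type pool. *Peritrophin-A* had 1 value, -0.43 on array 1.

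All 6 Idgf genes of the array gave values, and none of these was below 0. *Idgf3* measured 1.35 and 1.15 on arrays 1 and 2 and 0.86 on array 3. The array 3 value was the lowest, so extraction 1 was the higher. Its log2 ratio was 1.06 ± 0.16 (SE, n = 2), a 2.08-fold rise that lay just past the 2-fold limit (adjusted p = 0.0409). The call was lost without array 2 (adjusted p = 0.0689) and with arrays scaled to 1 median absolute deviation (adjusted p = 0.0521).

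*Idgf1* was even, with 0.84 on array 1 and 0.97 on array 3. Its adjusted p of 0.0396 in limma was under 0.05, but the log2 ratio of 0.90 ± 0.13 (SE, n = 2), or 1.87-fold, stayed under the fold limit, so it was not called. At an adjusted p under 0.05 and any fold, 5 of 23 members passed, against 10.1% of all tested genes.

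*Idgf2* measured 1.01, 0.65 and 0.59 on arrays 1 to 3, with a log2 ratio of 0.71 ± 0.14 that did not pass (adjusted p = 0.0535). *Idgf4*, the only one of the family on the X, measured 0.42, 0.59 and 0.44, and its log2 ratio of 0.47 ± 0.13 did not pass either (adjusted p = 0.0894 in limma). These values were the closest together of the Idgf genes with 3 arrays.

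*Idgf6* was the least even, with 1.67, 1.06, 0.66 and 0.04 on arrays 1 to 4. Its extraction means of 1.36 and 0.35 differed by 1.02, the largest gap among the Idgf genes, and the log2 ratio of 0.86 ± 0.28 (SE, n = 2) did not pass (adjusted p = 0.122). *Idgf5* had values in extraction 1 only, 0.15 and 0.03, the lowest of the family there. The median over the 5 tested Idgf genes was 0.86, with 0.84 in extraction 1 and 0.59 in extraction 2, and all 5 had an unadjusted p under 0.05 above 0, as did 17.8% of all tested genes.

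**Figure D3:**
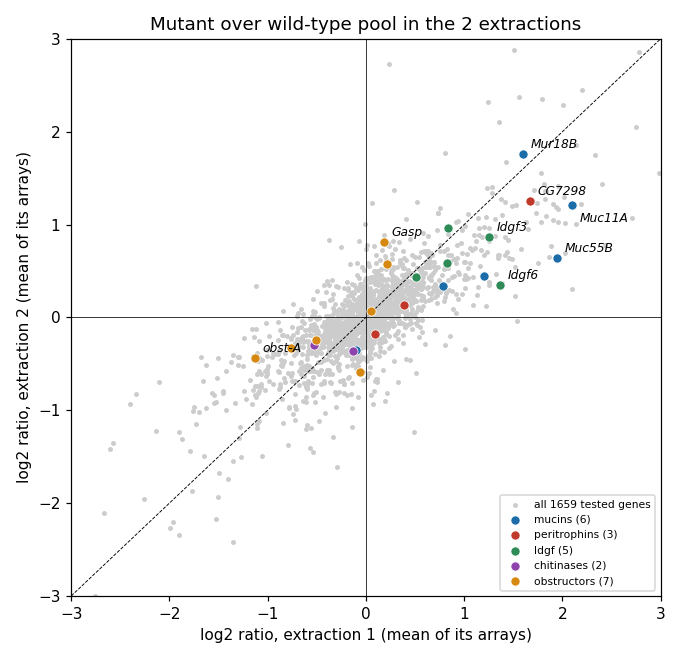
Log2 ratio of mutant over wild-type pool in extraction 1 (x axis) and extraction 2 (y axis), each the mean of its arrays, with all 1659 tested genes in grey, of which 13 lie outside the axes, and the 23 members coloured by family. *Mur18B* lies just above the dashed line of equal values, while *Muc55B* (1.95 and 0.64) and *Idgf6* (1.36 and 0.35) lie far below it.

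The mucins differed more between the extractions than the tested genes in general. Their log2 ratios were also larger, with a median of 1.06 against 0.01, and whether the difference goes with that size was not tested. Over the 6 tested mucins the median of the absolute difference between extractions was 0.60, over all members 0.36 and over all tested genes 0.23, and 5 of 6 mucins and 4 of 5 Idgf genes were higher in extraction 1. Among the obstructors 1 of 7 was higher there, among all members 14 of 23 and among all tested genes 50.3%. Regardless of sign, the ratio was larger in size in extraction 1 in 4 of 6 mucins, 4 of 5 Idgf genes, 3 of 7 obstructors and 14 of 23 members, against 968 of the 1659 tested genes. Whether the difference lies in the RNA or in the arrays was not tested. Only *Peritrophin-15b* had opposite signs in both extractions, as did 368 of the 1659 tested genes.

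The obstructor genes, which encode chitin-binding proteins of the cuticle and trachea, lay below 0 in 4 of 7 tested members, and none was called. *obst-A*, which organises the chitin of the larval cuticle, measured -1.48, -0.78 and -0.44 on arrays 1 to 3. All 3 values were below 0 and array 1 gave the lowest. Its log2 ratio of -0.79 ± 0.21 (SE, n = 2, 95% interval -1.36 to -0.21) did not pass (adjusted p = 0.0887).

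*obst-B* had the same order of arrays, -0.90, -0.64 and -0.33, with a log2 ratio of -0.55 ± 0.17 (adjusted p = 0.109 in limma). *obst-E*, which shapes the body and pupal case of the fly through its cuticle, measured -0.51 on array 1 and -0.24 on array 3 (adjusted p = 0.151). *obst-I* measured -0.06 and -0.59 on these arrays (adjusted p = 0.278). None of these 4 genes passed, and all their values were below 0.

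*Gasp*, a protein of the tracheal lining, measured 0.19 on array 1 and 0.81 on array 3, with a log2 ratio of 0.50 ± 0.20 (adjusted p = 0.165 in limma). *obst-H* measured 0.21 and 0.57 there (adjusted p = 0.162). *obst-J* lay at 0.10, 0.02 and 0.07 on arrays 1 to 3, the smallest spread of any tested member, and the 95% interval of its ratio ran from -0.28 to 0.41. The family median was -0.33, with 3 of 7 tested genes above 0 and 4 below. *obst-F* and *obst-G* had values on array 1 only, 0.28 and 0.92.

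Chitinases and the enzymes of chitin synthesis were poorly covered, since only 2 of 13 could be tested. *Cht2* measured -0.53 on array 2 and -0.30 on array 3, with a log2 ratio of -0.41 ± 0.14 (SE, n = 2) that did not pass (adjusted p = 0.128). *Cht9* measured -0.21, -0.05 and -0.37 on arrays 1 to 3, and its log2 ratio of -0.25 ± 0.14 did not pass either (adjusted p = 0.283). The 5 values of these 2 chitinases were all below 0. The 95% intervals of both, -0.79 to -0.03 and -0.63 to 0.13, leave out a 2-fold change, though they hold no spread of the wild-type pool. *Cht4* had 0.14 on array 1, and *Cht5* had -0.19 on array 3.

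*serp* and *verm*, neighbouring genes for the chitin deacetylases that limit the length of tracheal tubes, had 1 value each, -0.04 and 0.26, both on array 3. The chitin synthase gene *kkv* and the chitinase genes *Cht6*, *Cht7*, *Cht8*, *Cht10*, *Cht11* and *Cht12* had no value, so neither the making nor most of the breakdown of chitin could be followed in these genes.

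Other genes of the pathway were taken from 3 lists. Of 12 listed genes of chitin precursor synthesis and assembly 10 were on the array and 4 were tested. None was called in limma in either direction, and 1 had an unadjusted p under 0.05 above 0, as did 17.8% of all tested genes. That gene was *mmy*, whose enzyme makes the activated sugar from which chitin is built. It measured 0.80, 0.67 and 0.54 on arrays 1 to 3, with a log2 ratio of 0.64 ± 0.13 (SE, n = 2, adjusted p = 0.058). *nst*, of the step before it, had opposite signs on arrays 1 and 3, 0.29 and -0.47 (adjusted p = 0.801). *Pgi*, of general sugar metabolism, and *exp*, for chitin assembly in the trachea, had log2 ratios of -0.07 ± 0.16 and -0.25 ± 0.13 that did not pass (adjusted p = 0.778 and 0.262). Of 7 further deacetylase and hexosaminidase genes, which deacetylate chitin or cut its fragments, none was tested, and *Cda9* had 1 value, 0.33.

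Of 41 other chitin-binding genes outside the members 35 were on the array and 8 were tested. In limma 1 was called higher and none lower, against 3.8% and 2.83% of all tested genes. *CG17145* measured 1.91 on array 1 and 1.04 on array 3, with a log2 ratio of 1.48 ± 0.25 (SE, n = 2), or 2.78-fold (adjusted p = 0.0425). Its call rested on arrays 1 and 3 and was lost without array 2 (adjusted p = 0.0679), with arrays brought to 1 median absolute deviation (adjusted p = 0.0528) and with 1 probe for a gene (adjusted p = 0.05001), settings in which its ratio stayed between 1.47 and 1.48. *CG17145* has 1 probe and no value on array 2, so the first and last of these settings changed only other genes in the fit. *CG17826* measured 1.76, 1.17, 0.66 and 0.62 on arrays 1 to 4, and its log2 ratio of 1.05 ± 0.24 missed the threshold (adjusted p = 0.0648), which it passed with values on all 4 arrays required and in 4 other alternatives. *CG10725* measured 0.66, 0.70 and -0.19 on arrays 2 to 4 (log2 ratio 0.46 ± 0.16, adjusted p = 0.139). The median log2 ratio of the 8 was 0.49, with 6 above 0, as were 50.9% of all tested genes. *CG3348* and *CG32302* were the 2 below, at -0.53 ± 0.15 (adjusted p = 0.0974) and -0.47 ± 0.17 (adjusted p = 0.148).

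Many of these genes lie side by side. Where members and listed chitin-binding genes within 6 places of each other in the order of annotated genes are joined, the stretch with most measured genes is one of 9 on arm 3L that runs from *obst-J* to *CG17147*. It spans 14 annotated genes, and genes in a stretch that are neither members nor listed were not counted. Of the 9 genes 8 had a value, and 21 of their 22 values lay above 0, the exception being *CG6933* on array 4 (-0.03). The arrays of an extraction carry the same RNA, so the values of a gene are not all separate samples. Counted by gene, all 8 had a mean above 0, some of them with values in 1 extraction only. Of all tested genes, which have values in both extractions, 50.9% had a mean log2 ratio above 0. No share of single array values above 0 was formed over all genes, for this stretch or those below. *CG7298* and *CG17145* were called higher in this stretch. *CG7290*, *CG7017* and *CG6933*, which lie between them, had log2 ratios of 0.38 ± 0.13, 0.65 ± 0.13 and 0.52 ± 0.16 that did not pass (adjusted p = 0.131, 0.0531 and 0.111 in limma).

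A longer stretch of 10 such genes on 3L, from *CG5897* to *CG43896*, spans 17 annotated genes. Of the 10 genes 6 had a value, and all 11 values lay above 0. *CG5883* and *CG7252* measured 1.75 and 1.13 on array 1, and *CG7248* measured 2.21 and 1.24 on arrays 1 and 2, so only *CG17826* of this stretch could be tested. The grouping was made with the values known and has no test.

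Among the members, *Idgf1*, *Idgf2* and *Idgf3* are direct neighbours on arm 2L, and their 8 values all lay above 0, between 0.59 and 1.35. *Mur18B* and *Muc18B* are direct neighbours on the X, with 7 values above 0. *obst-A* and *Peritrophin-A*, also next to each other on the X, had 4 values, all below 0. Counted by gene, 36.4% of all tested genes lay above 0 on every array with a value and 34.7% below 0. *Cht8*, *Cht12*, *Cht4* and *Cht9* follow each other on arm 2R, where 1 of 4 values was above 0. On a smaller stretch of 3L, *CG13806*, *obst-I* and *CG32302* had 1 of 6 values above 0, so chitin-binding neighbours did not all lie on the same side.

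**Figure D4:**
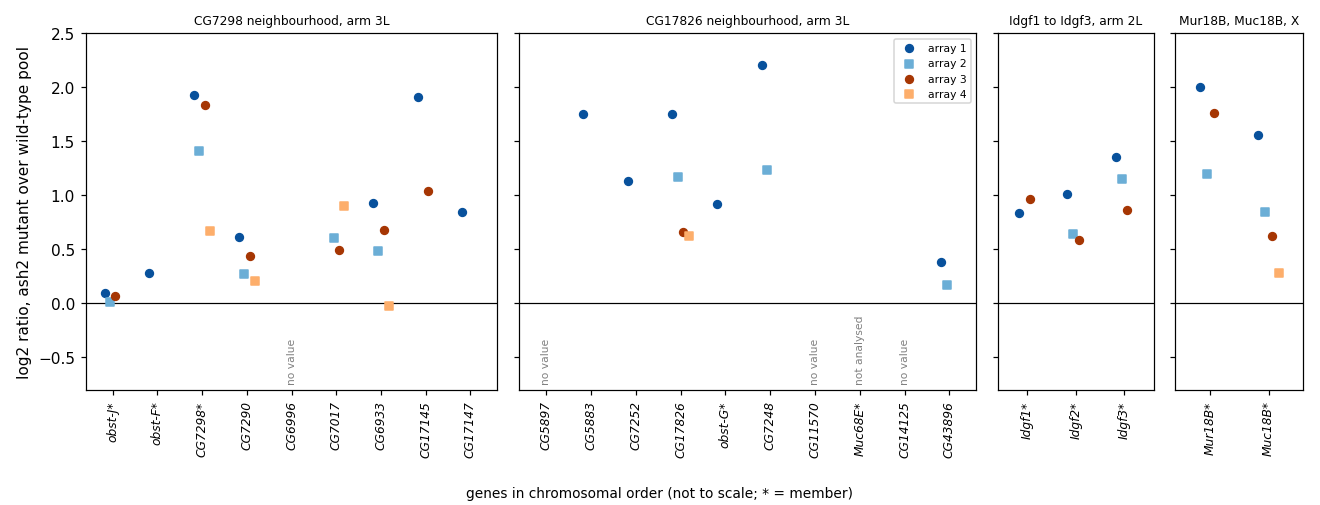
Log2 ratio of mutant over wild-type pool on each array (y axis) for genes in chromosomal order (x axis, not to scale, asterisks mark members) in 2 stretches of arm 3L, the Idgf genes of arm 2L and the mucin pair of the X. All values drawn lie above 0 except that of *CG6933* on array 4, -0.03. The panels were picked out of 14 stretches, and those with most values below 0, such as *obst-A* with *Peritrophin-A*, are not drawn.

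The 48 members were spread over all major arms. Chromosome 3, which was not exchanged in the mutant stock, carried 6 of the 23 tested members and 1 of the 4 called ones, *CG7298*. The X carried 5 tested members with a median log2 ratio of 0.83, and both called mucins, and 2L carried 9 with a median log2 ratio of 0.26.

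Marker genes of the larval tissues also differed between mutant and pool. Of 11 midgut markers on the array 7 were tested and 3 were called higher, namely *Ssk*, for a junction protein of the midgut, the trypsin gene *alphaTry* and the amylase gene *Amy-p*, at 4.0-fold, 2.14-fold and 3.32-fold (adjusted p = 0.0205, 0.0409 and 0.0337 in limma). All 7 had log2 ratios above 0, from 0.28 to 2.00. Of 6 tested salivary gland markers *Sgs5bis* and *Eig71Ee* were called lower, with ratios over the list from -3.09 to 0.80. The other 4 did not pass, with *Sgs4* and *Sgs5* below 0 and *ng1* and *ng2* above 0, each at 0.80. Of 5 fat body markers on the array 4 were tested, and *Lsp2* and *Fbp1* were called lower, with ratios from -2.11 to 0.01. Of 11 epidermal markers on the array 4 were tested, and *Cpr49Ac*, *Pcp* and *Lcp9* were called lower, with ratios from -2.13 to -0.09. Epidermal values in 1 extraction only were -1.03 for *Cpr47Eg*, -0.46 for *Cpr67B*, 0.31 for *Lcp65Af*, and 0.24 and -0.55 for *Lcp65Ag1*. Among all tested genes 3.8% were called higher and 2.83% lower. Blood cells had 2 tested markers, *Col4a1* at 0.41 ± 0.13 (adjusted p = 0.114) and *eater* at 0.01 ± 0.13 (adjusted p = 0.97), and those of trachea and Malpighian tubule had no value. The table holds ratios and no levels, so no summed level of a marker list can be given, and the part of these shifts in the values of the members was not tested.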

How the data were processed

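The deposited values are log2 ratios, 1 per spot and array, normalised by the authors. Slides were read with GenePix Pro 6, spots failing quality thresholds were removed and are empty, background was corrected with normexp, and OLIN normalised within arrays and, by its mad method, between the 4 arrays. Neither OLIN nor the authors' limma has a version in the sources used here, and the base of the ratio rests on the convention of limma, its direction on that convention and the labelled dyes.

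Of 16416 probes 13164 had 1 gene. Symbols were updated through the Release 6 gene table, which served for names and gene order only, and 490 kept the old one. Per array, values of probes for the same gene were averaged, then arrays of an extraction, and genes with a value in both extractions were kept. An intercept was fitted over 1659 genes in limma 3.58.1 (R 4.3.3) with Benjamini-Hochberg adjustment over all, called at an adjusted p under 0.05 and 2-fold. SE and 95% intervals are moderated ones. The pool counts as 1 control sample whose spread is left out. The fit was also run on simulated data, in which the arrays of an extraction were set closer together than the real ones. Their real median absolute difference was 0.21 on arrays 1 and 2 and 0.31 on arrays 3 and 4. That run therefore does not cover the differences between arrays. Tables were made with pandas 2.3.3 in Python 3.11.15.

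Members and lists were chosen with earlier results of these data known. Every member is named, and of the lists the called genes and up to 4 others with most arrays, while *CG3348*, *CG32302* and neighbours in a stretch were named after their values were seen. Protein and promoter sequences were not analysed here. Alternatives covered separate arrays, a random block, each array left out, centring, scaling, probe choice, array minimum, threshold, prior and single probes.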

Additional observations from a re-analysis of the deposited data

Results flagged for a closer look

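On array 4, 1 value of a member stood apart from the other arrays by Dixon's criterion at 95%. *Peritrophin-15a* had -0.12 there, against 0.36 to 0.41 on arrays 1 to 3. The midgut protease gene *yip7* showed the same, with -0.18 on array 4 and 0.75 to 0.93 on the others. Chance marks about 1 in 20 genes, and 18 members and listed genes with values on all 4 arrays were examined. The arrays are 2 pairs of the same RNA and not 4 separate samples.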

How the results depend on the processing

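Of 299 recomputed log2 ratios of members 285 kept their sign and side of the threshold, and the 2 that changed sign were those of *Peritrophin-15b*, at 0.0028 with the 4 arrays as separate values and from -0.12 to 0.036 without 1 array each. In these settings without 1 array, 0 to 5 members and 0 to 123 of all genes were called, 0 to 72 higher and 0 to 51 lower. Without array 3 none of 358 genes passed, and without array 2 2 members and 55 genes did. The median log2 ratio over members then ranged from 0.46 to 0.70, and those of mucins from 0.74 to 1.30, peritrophins from 0.13 to 0.27, Idgf genes from 0.66 to 0.90 and obstructors from -0.48 to -0.33. With arrays scaled to 1 median absolute deviation 2 members were called, *Mur18B* and *CG7298*, and 72 genes, 29 of them lower. With values on all 4 arrays 2 of 6 members were called, *CG7298* and *Muc55B*, the members' median was 0.84, and 49 genes passed, 31 higher and 18 lower. With at least 3 arrays the medians were 0.56 over members and -0.55 over obstructors. At an adjusted p alone 168 genes passed, 78 of them lower, and with all 2376 probes tested singly 114 probes were called higher. *Mur18B* was called in all 13 alternatives that tested it. *Muc55B* also passed with separate arrays, with centred arrays, with values on all 4 arrays and at an unadjusted p. Family medians were not formed under 3 genes. No paired analysis was possible because the 4 samples form 1 group and the wild-type pool has no replicates. The number of arrays, and of spots that passed, limits the precision.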
